A study of Mus musculus with 6 samples.

Results

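The 28 genes described here encode the enzymes that bring pyruvate into the mitochondrion, turn the tricarboxylic acid (TCA) cycle and link it to the cytosol. They were chosen by name as genes of these steps, with earlier results of these data known. All 28 symbols were found in the deposited tables, and each table lists 55401 genes. Succinate dehydrogenase and the regulatory kinases were not among them and are given within a wider pathway list. The libraries were polyadenylated RNA of germinal centre B cells sorted from the spleen of wild-type C57BL/6 mice, 3 libraries of the DP subset and 3 of the DN subset. All mice had received sheep red blood cells into the peritoneal cavity, a second dose of the same cells on day 5, and were killed on day 12. The labels do not say which markers DP and DN stand for, and the sources used here give no age for the mice. The design text names 3 mice, each the source of a DP and a DN library, and all 6 libraries carry the same batch label. Which mouse gave which library is not labelled, so p-values describe variation among the libraries as deposited, and part of it may be technical.

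Gene counts per library came to between 17509384 and 20538024 in DP and between 8904415 and 11897360 in DN. Levels below are CPM, that is counts scaled to a common library size with TMM factors, and a floor of 3 counts corresponded to 0.155 to 0.183 CPM in DP and 0.236 to 0.315 CPM in DN, which covers counting error only. Of 9 germinal centre B cell markers, all were present in every library, with Bcl6 at 76.5 ± 1.09 CPM in DP and 159.6 ± 1.93 CPM in DN (SD, n = 3 each). The summed level of the 9 was 1084 to 1103 CPM in DP and 2202 to 2282 CPM in DN, with 8 of the 9 lower in DP. Erythroid markers had a summed level of 15.7 to 18.2 CPM in DP and 61.9 to 72.4 CPM in DN, with 6 of 7 lower in DP and the seventh, Hba-a2, below the filter. Macrophage and monocyte markers summed to 9.25 to 11.3 CPM in DP and 23.4 to 26.1 CPM in DN, with 6 of 8 lower in DP, and T cell markers to 0.931 to 1.13 CPM in DP and 1.88 to 3.46 CPM in DN, with 1 of 5 lower and the others below the filter. Every erythroid and macrophage marker had counts in all 6 libraries, while the T cell genes Cd3e, Cd8a and Trac were at 0 in some. Plasma cell markers summed to 293 to 306 CPM in DP and 387 to 398 CPM in DN, with Sdc1, Prdm1 and Xbp1 higher in DP and the more abundant Jchain lower.

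Pyruvate made by glycolysis crosses the inner mitochondrial membrane through a carrier built of MPC1 and MPC2. The pyruvate dehydrogenase complex turns it into acetyl-CoA and is switched off by kinases and on by phosphatases, while pyruvate carboxylase turns it into oxaloacetate. Citrate synthase joins acetyl-CoA and oxaloacetate, and the cycle then oxidises citrate back to oxaloacetate, feeding electrons to the respiratory chain. Citrate, malate and aspartate also leave the cycle for lipid and nucleotide synthesis, and transaminases and glutamate dehydrogenase tie it to amino acids. Germinal centre B cells divide fast and are known to draw on oxidative metabolism.

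Most genes of pyruvate entry and the TCA cycle were modestly higher in DP, and a few stood far from the others in each direction. All 28 passed the filter on low counts, and 24 were called different, against 75.9% of all 11296 genes tested. Of these, 19 were higher in DP (edgeR adjusted p under 0.05), against 38.3% of all genes, and 5 were lower, against 37.6%. The median log2 fold change of DP over DN was 0.36 over the 28 genes and 0.0061 over all genes tested. The members were chosen with earlier results of these data known, so these shares and medians are descriptions, and the set was not tested. With library totals alone in place of TMM factors, 15 were higher and 8 lower, and the medians were 0.16 and -0.19, since this choice moves every gene by nearly the same amount. The summed level of the 28 genes was 2761, 2786 and 2752 CPM in the DP libraries, against 2058, 2177 and 2093 CPM in the DN libraries. The groups did not overlap for 24 of the 28 genes, against 77.0% of all genes tested. In these bulk libraries, more cells that use a gene and more RNA per cell cannot be told apart.

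**Figure D1:**
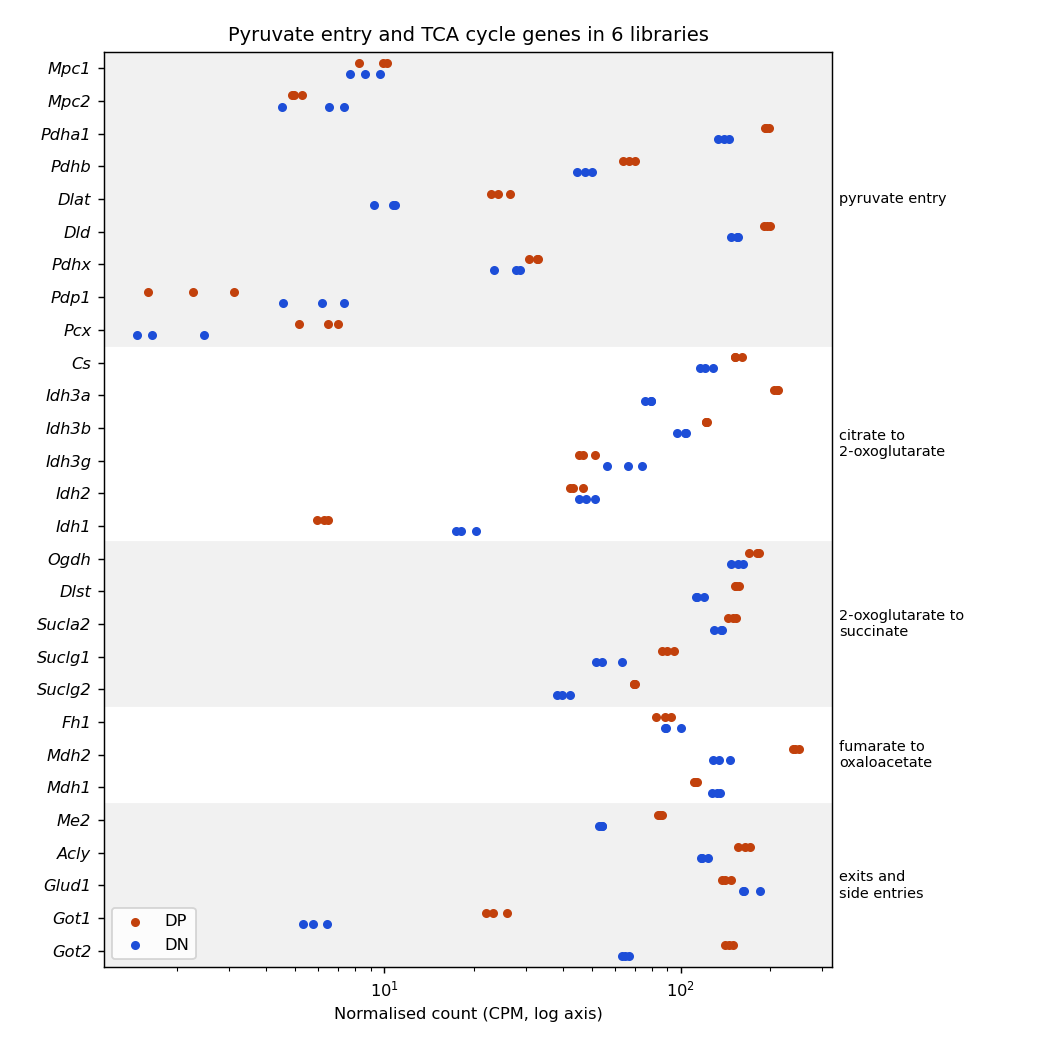
Normalised counts (CPM, log axis) of the 28 genes in each of the 3 DP libraries (orange, upper row of points) and 3 DN libraries (blue, lower row), grouped by step. The DP and DN points of Idh3a, Idh1, Got1 and Got2 lie far apart, while those of Mpc1, Mpc2, Idh2 and Fh1 overlap.

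Rises of over 2-fold were found for Got1 and Got2, the cytosolic and mitochondrial aspartate aminotransferases, Pcx (pyruvate carboxylase), Idh3a (the catalytic alpha subunit of the NAD-dependent isocitrate dehydrogenase) and Dlat (the acetyltransferase core of the pyruvate dehydrogenase complex). Falls of over 2-fold were found for Idh1, the cytosolic NADP-dependent isocitrate dehydrogenase, and Pdp1, a phosphatase that switches pyruvate dehydrogenase on. These folds use TMM factors, and Got2 fell short of 2-fold with library totals alone (log2 fold change 0.97). Among all genes tested, 12.3% were over 2-fold higher and 12.8% over 2-fold lower. The test against a minimum fold of 1.5 left 8 higher and 2 lower, where it called 17.4% and 16.9% of all genes. The 8 were the 5 above with Mdh2, Suclg1 and Suclg2. The 14 members called different that did not pass this test had smaller folds, from Sucla2 (1.11-fold) to Me2 (1.58-fold).

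**Figure D2:**
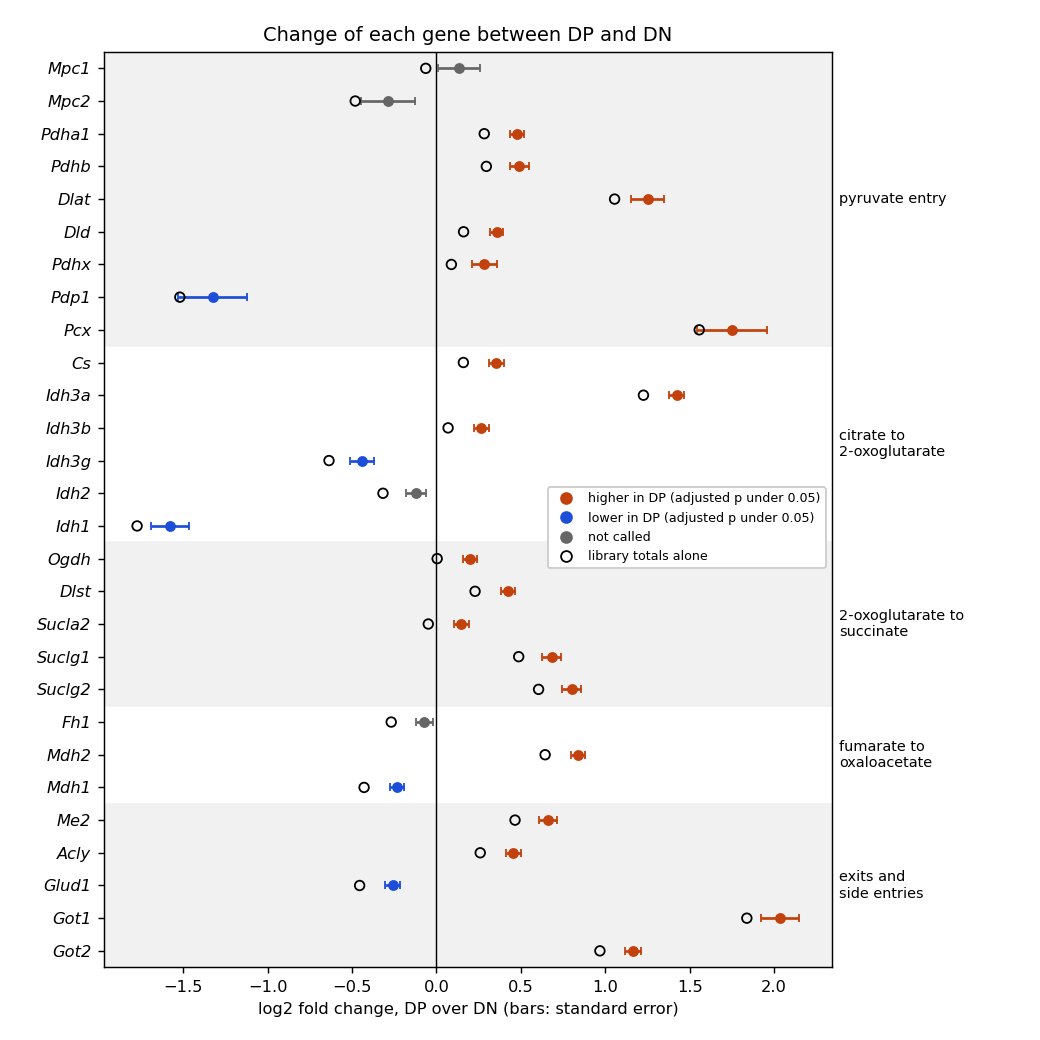
Log2 fold change of DP over DN for each gene (filled points, bars are standard errors; orange higher, blue lower, grey not called) beside the value with library totals alone (open circles). Got1 at 2.03 and Idh1 at -1.58 mark the ends, and the open circles of Ogdh and Sucla2 lie close to 0.

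Promoter sequences from RefSeq (build GRCm38.p6, which is mm10) were found for 25 of the 28 genes, as windows of 250 bases before to 50 after an annotated start. Idh3a, Pdp1 and Me2 had none. The median GC content was 61.7% over 33 member windows and 52.7% over all windows. The latter include windows of genes below the filter, and no GC median was computed over tested genes alone. The palindrome CACGTG, the E-box that MYC and other helix-loop-helix factors can bind, stood in a window of 2 genes, Pcx and Ogdh, that is 8%, against 12.4% of tested genes with a window and 7.15% of all windows. On either strand, the ETS core CCGGAAG stood in 5 genes (20%, against 22.9% of tested genes and 8.86% of windows). The NRF1 element GCATGCG stood in 3 (12%, against 8.04% and 3.58%), and the nuclear receptor element AAGGTCA in 2 (8%, against 3.72% and 4.72%). The ETS core and the nuclear receptor element can share the letters AAG. Between 2 and 5 member genes stand behind each share, and a match describes letters, not a bound site. Ogdh, which has several windows, held a match of each motif but the ETS core. The 250 bases before the start are shown for Got1 and Pcx, the genes with the largest rises, and for Idh3g, the subunit gene that fell, with the motif of each in capitals. For Pcx the window is the upstream one of its 2 annotated starts.
Got1, chr19:43524606-43524855, minus strand: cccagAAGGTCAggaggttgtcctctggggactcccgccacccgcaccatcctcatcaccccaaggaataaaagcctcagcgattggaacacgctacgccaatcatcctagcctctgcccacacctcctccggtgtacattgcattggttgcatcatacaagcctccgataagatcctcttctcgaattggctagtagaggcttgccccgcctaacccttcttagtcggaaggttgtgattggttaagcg
Pcx, chr19:4510222-4510471, plus strand: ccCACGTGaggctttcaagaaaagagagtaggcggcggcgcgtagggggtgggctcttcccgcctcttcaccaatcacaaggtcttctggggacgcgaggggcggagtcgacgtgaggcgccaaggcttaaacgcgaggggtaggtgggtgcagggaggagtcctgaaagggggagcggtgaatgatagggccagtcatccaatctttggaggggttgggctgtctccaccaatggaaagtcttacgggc
Idh3g, chrX:73786898-73787147, minus strand: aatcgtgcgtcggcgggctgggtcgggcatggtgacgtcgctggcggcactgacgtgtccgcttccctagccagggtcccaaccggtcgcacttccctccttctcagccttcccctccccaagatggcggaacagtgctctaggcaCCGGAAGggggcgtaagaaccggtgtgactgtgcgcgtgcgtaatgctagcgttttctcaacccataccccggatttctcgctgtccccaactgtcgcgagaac
The AAGGTCA of Got1 begins 245 bases before the start, the CACGTG of Pcx 248 bases before it and the CCGGAAG of Idh3g 104 bases before it. The deposited identifiers and GENCODE M21 place the genes in the same build. Got1 (ENSMUSG00000025190.13) lies on chromosome 19 from 43499752 to 43524605 and Pcx (ENSMUSG00000024892.17) on chromosome 19 from 4510472 to 4621752. Idh3g (ENSMUSG00000002010.17) lies on chromosome X from 73778963 to 73786897, Idh3a (ENSMUSG00000032279.11) on chromosome 9 from 54586334 to 54604661 and Idh1 (ENSMUSG00000025950.16) on chromosome 1 from 65158616 to 65186500. Each of the 28 is a protein-coding gene in that annotation, and a deposited count covers the gene as a whole, not 1 exon or isoform.

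Of the 9 genes of pyruvate entry, 6 were higher, 1 was lower and 2 were not called. Here and below, log2 fold changes are of DP over DN and carry their standard error. The carrier genes Mpc1 and Mpc2 were low and overlapped between groups. Mpc1 had 8.24, 10.2 and 9.89 CPM in the DP libraries, against 8.64, 9.65 and 7.69 CPM in the DN libraries (log2 fold change 0.13 ± 0.13, edgeR adjusted p = 0.338). Mpc2 had 5.28, 4.97 and 4.88 CPM in the DP libraries, against 6.52, 7.34 and 4.51 CPM in the DN libraries (log2 fold change -0.29 ± 0.16, edgeR adjusted p = 0.0995). Neither passed the test with TMM factors and all 6 libraries, but Mpc2 depended on single libraries. Its value moved nearer to 0 without DN replicate 2 (log2 fold change -0.15, edgeR adjusted p = 0.446), and it was called lower without DN replicate 3 (log2 fold change -0.44, edgeR adjusted p = 0.0143) and with library totals alone (log2 fold change -0.48, edgeR adjusted p = 0.00585). Of the stretches of 50 bases in Mpc1 transcripts, 26.3% also occur in another annotated gene, so its level is uncertain. The counts behind Mpc2 were 89, 96 and 80 in DP and 83, 70 and 44 in DN.

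In the pyruvate dehydrogenase complex, the 5 genes of its subunits all rose. Pdha1, the alpha subunit of its decarboxylase, had 193, 193 and 199 CPM in the DP libraries, against 140.0, 146 and 134 CPM in the DN libraries (log2 fold change 0.48 ± 0.041, edgeR adjusted p = 4.13e-16). Pdhb, the beta subunit, averaged 66.9 ± 3.07 CPM in DP and 47.3 ± 2.67 CPM in DN and rose by a similar step (log2 fold change 0.49 ± 0.057). Dlat had 24.2, 23.0 and 26.5 CPM in the DP libraries, against 10.7, 10.9 and 9.23 CPM in the DN libraries, and was 2.38-fold higher in DP (log2 fold change 1.25 ± 0.10, edgeR adjusted p = 9.69e-18). With TMM factors, every DP library thus held over 2 times the Dlat level of any DN library. The log2 fold change of Dlat was 1.06 with library totals alone. Dld, the lipoamide dehydrogenase that this complex shares with other oxo acid dehydrogenases, averaged 195 ± 4.23 CPM in DP and 152 ± 4.44 CPM in DN (log2 fold change 0.36 ± 0.040). Pdhx, which anchors that enzyme to the core, rose least, at 32.1 ± 1.202 CPM in DP and 26.6 ± 2.84 CPM in DN (log2 fold change 0.28 ± 0.076, edgeR adjusted p = 6.65e-04), and lost its call with library totals alone (log2 fold change 0.088, edgeR adjusted p = 0.293). Per length, Pdha1 stood at 179.5 ± 3.69 TPM in DP and 148 ± 6.55 TPM in DN, Pdhb at 59.6 ± 2.53 TPM in DP and 48.4 ± 2.95 TPM in DN, and Dlat at 17.3 ± 1.29 TPM in DP and 8.29 ± 0.762 TPM in DN (SD, n = 3 each). These TPM values divide by the annotated exon length and carry no TMM factor, so they serve to order genes within a group.

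Pcx, which diverts pyruvate to oxaloacetate, and Pdp1 moved in opposite directions. Pcx had 5.16, 6.98 and 6.47 CPM in the DP libraries, against 1.65, 1.47 and 2.46 CPM in the DN libraries, from 87, 135 and 106 counts in DP and 21, 14 and 24 in DN. It rose 3.37-fold (log2 fold change 1.75 ± 0.21, edgeR adjusted p = 3.04e-11), although it was among the least abundant of the 28 genes in both groups. Pdp1 had 1.60, 3.10 and 2.26 CPM in the DP libraries, against 4.55, 7.34 and 6.15 CPM in the DN libraries, and fell by 1.32 ± 0.20 on the log2 scale (edgeR adjusted p = 9.20e-08). Its libraries spread widely, with coefficients of variation of 32.5% in DP and 23.2% in DN, yet the groups did not overlap. In the wider list, the kinases that switch the complex off were Pdk1, at 31.6 ± 1.24 CPM in DP and 19.3 ± 1.53 CPM in DN (log2 fold change 0.72 ± 0.080), and Pdk3, at 60.1 ± 2.60 CPM in DP and 48.8 ± 1.92 CPM in DN (log2 fold change 0.30 ± 0.057), both higher in DP. Pdp2, the other catalytic phosphatase, was higher as well, at 12.7 ± 0.773 CPM in DP and 7.73 ± 0.546 CPM in DN (log2 fold change 0.71 ± 0.12). These 3 were named after their values were seen. Pdk2 and Pdk4 had no more than 2 counts in any library and were not tested.

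Of the 6 genes between citrate and 2-oxoglutarate, 3 were higher and 2 lower in DP. Cs, citrate synthase, averaged 155 ± 4.92 CPM in DP and 122 ± 6.20 CPM in DN (log2 fold change 0.36 ± 0.043, edgeR adjusted p = 1.04e-10). The NAD-dependent isocitrate dehydrogenase of the cycle is built of alpha, beta and gamma subunits, and their genes did not move together. Idh3a had 212, 206 and 210.2 CPM in the DP libraries, against 79.1, 75.8 and 79.3 CPM in the DN libraries, a 2.68-fold rise (log2 fold change 1.42 ± 0.044, edgeR adjusted p = 3.24e-37). Idh3b had 123, 121 and 122 CPM in the DP libraries, against 97.4, 104 and 103 CPM in the DN libraries, a small rise (log2 fold change 0.26 ± 0.044, edgeR adjusted p = 3.78e-07) that was not called with library totals alone (log2 fold change 0.069, edgeR adjusted p = 0.156). Idh3g, a regulatory subunit whose promoter stretch is printed above, had 45.3, 51.2 and 46.7 CPM in the DP libraries, against 56.2, 73.7 and 66.4 CPM in the DN libraries, and fell (log2 fold change -0.44 ± 0.072, edgeR adjusted p = 5.71e-06). All 3 DP libraries lay above the DN libraries for Idh3a and Idh3b and below them for Idh3g. Per length, Idh3a stood at 142 ± 1.95 TPM in DP and 60.7 ± 1.65 TPM in DN, Idh3b at 123 ± 0.432 TPM in DP and 117 ± 3.68 TPM in DN and Idh3g at 60.8 ± 4.03 TPM in DP and 95.5 ± 12.4 TPM in DN (SD, n = 3 each). Idh3a was thus the lowest of the 3 subunit genes in DN and the highest in DP on the TPM scale. Its place in DN depends on the exon lengths used, 5072 bases for Idh3a and 2701 for Idh3g. In CPM, Idh3a averaged 78.1 and Idh3g 65.5 in DN.

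Of the NADP-dependent isocitrate dehydrogenases, Idh1 fell and Idh2 did not pass the test. Idh2, the mitochondrial enzyme, had 43.4, 46.6 and 42.4 CPM in the DP libraries, against 45.5, 51.4 and 48.0 CPM in the DN libraries (log2 fold change -0.12 ± 0.061, edgeR adjusted p = 0.0680). Its groups overlapped, but 5 of the 14 alternatives called it lower, with library totals alone giving log2 fold change -0.32, edgeR adjusted p = 7.79e-06. The other 9 did not call it, and its value was nearer to 0 without DN replicate 2 (log2 fold change -0.068, edgeR adjusted p = 0.358) and with no filter (log2 fold change -0.047, edgeR adjusted p = 0.548). Idh1 had 5.93, 6.47 and 6.29 CPM in the DP libraries, against 18.2, 20.3 and 17.4 CPM in the DN libraries. It was 2.98-fold lower in DP (log2 fold change -1.58 ± 0.11, edgeR adjusted p = 1.25e-19), and every DN library held over 2 times the level of any DP library. Erythroid and macrophage markers were lower in DP too, with the summed levels given above, and their part in the falls of Idh1 and Pdp1 was not tested. Of the counts per length over the 4 mitochondrial isocitrate dehydrogenase genes, Idh3a held 37.0% ± 0.931 in DP and 17.5% ± 1.39 in DN. Idh3b held 31.9% ± 0.476 in DP and 33.8% ± 0.797 in DN, Idh3g held 15.8% ± 0.863 in DP and 27.5% ± 2.12 in DN, and Idh2 held 15.3% ± 0.598 in DP and 21.2% ± 0.309 in DN.

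**Figure D3:**
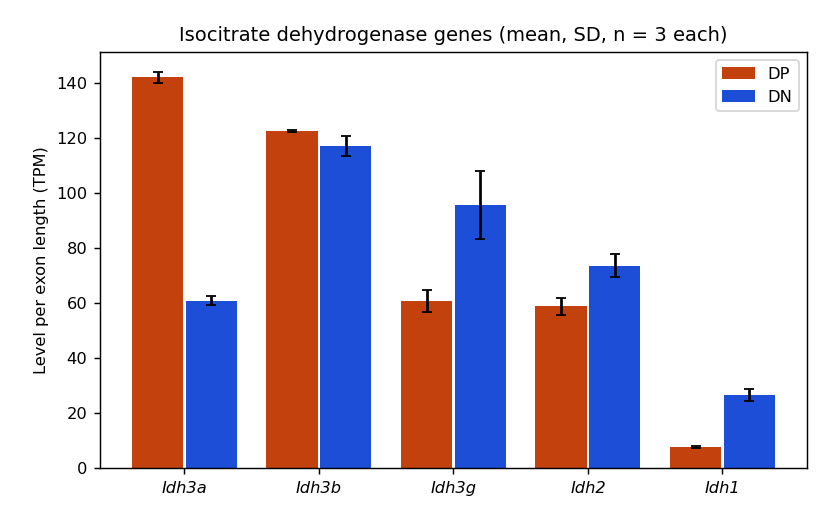
Level per exon length (TPM, mean and SD of 3 libraries) of the 5 isocitrate dehydrogenase genes in DP (orange) and DN (blue). Idh3a stands at 142 TPM in DP and 60.7 TPM in DN. Within DP its bar is the highest of the 5, and within DN those of Idh3b, Idh3g and Idh2 stand above it.

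All 5 genes that carry 2-oxoglutarate to succinate were higher in DP, although Ogdh and Sucla2 lost the call with library totals alone. Ogdh, the decarboxylase of the 2-oxoglutarate dehydrogenase complex, averaged 178 ± 7.05 CPM in DP and 155 ± 7.39 CPM in DN (log2 fold change 0.20 ± 0.042, edgeR adjusted p = 2.68e-05) and stood at log2 fold change 0.004, edgeR adjusted p = 0.930, with library totals alone. Dlst, the succinyltransferase core of the same complex, averaged 154 ± 2.59 CPM in DP and 115 ± 3.79 CPM in DN (log2 fold change 0.42 ± 0.043, edgeR adjusted p = 1.46e-13). Succinyl-CoA ligase pairs an alpha subunit, Suclg1, with a beta subunit that is either Sucla2, which serves ADP, or Suclg2, which serves GDP. Suclg1 had 89.6, 94.8 and 86.7 CPM in the DP libraries, against 54.4, 63.3 and 51.8 CPM in the DN libraries (log2 fold change 0.68 ± 0.056, edgeR adjusted p = 2.88e-16). Suclg2 had 69.6, 70.0 and 69.5 CPM in the DP libraries, against 38.3, 42.4 and 39.8 CPM in the DN libraries (log2 fold change 0.80 ± 0.057, edgeR adjusted p = 1.53e-19), and Sucla2 had 153, 144 and 149.8 CPM in the DP libraries, against 137, 137 and 129 CPM in the DN libraries (log2 fold change 0.15 ± 0.042, edgeR adjusted p = 0.00150). The alpha subunit was 1.61-fold and the GDP-linked beta subunit 1.74-fold higher in DP. The ADP-linked one was 1.11-fold higher, and its log2 fold change turned to -0.048 with library totals alone (edgeR adjusted p = 0.298). Of the counts per length of both beta subunits, Suclg2 held 28.8% ± 0.699 in DP and 20.5% ± 0.880 in DN.

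Of the 3 genes from fumarate to oxaloacetate, 1 was higher and 1 lower, as the mitochondrial and cytosolic malate dehydrogenases moved in opposite directions. Mdh2, the mitochondrial enzyme of the cycle, had 242, 250.1 and 239.5 CPM in the DP libraries, against 135, 128 and 146 CPM in the DN libraries (log2 fold change 0.84 ± 0.042, edgeR adjusted p = 1.64e-26). Mdh1, its cytosolic counterpart in the malate-aspartate shuttle, had 113, 111 and 112 CPM in the DP libraries, against 128, 135 and 132 CPM in the DN libraries (log2 fold change -0.23 ± 0.043, edgeR adjusted p = 2.78e-06). Every DP library lay above every DN library for Mdh2 and below it for Mdh1. Fh1, fumarate hydratase, had 92.8, 88.7 and 82.4 CPM in the DP libraries, against 89.3, 99.9 and 88.7 CPM in the DN libraries and overlapped between groups (log2 fold change -0.072 ± 0.050, edgeR adjusted p = 0.188), although it was called lower with library totals alone (log2 fold change -0.27, edgeR adjusted p = 3.69e-06) and lay nearer to 0 without DN replicate 2 (log2 fold change -0.010, edgeR adjusted p = 0.868) or DP replicate 3 (log2 fold change -0.020, edgeR adjusted p = 0.764). By level per length Mdh2 ranked 1 of the 28 genes in DP and 4 in DN, and Mdh1 ranked 4 in DP and 1 in DN.

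Of the 5 genes that connect the cycle to other pathways, 4 were higher and 1 was lower, and both aspartate aminotransferases rose most. Got1, with its promoter stretch printed above, had 23.2, 25.97 and 22.03 CPM in the DP libraries, against 5.73, 6.396 and 5.33 CPM in the DN libraries, a 4.09-fold rise and the largest of the 28 genes (log2 fold change 2.03 ± 0.11, edgeR adjusted p = 2.37e-24). Got2 had 150.1, 146 and 140.4 CPM in the DP libraries, against 64.8, 63.1 and 66.8 CPM in the DN libraries (log2 fold change 1.16 ± 0.047, edgeR adjusted p = 5.34e-31). With TMM factors, each DP library held over 2 times the Got2 level of any DN library. The log2 fold change of Got2 was 0.97 with library totals alone. Glud1, the glutamate dehydrogenase that also makes 2-oxoglutarate from glutamate, had 140.4, 148 and 137 CPM in the DP libraries, against 162, 185 and 164 CPM in the DN libraries, and was lower in DP (log2 fold change -0.26 ± 0.044, edgeR adjusted p = 6.41e-07). The routes from glutamate by transamination and by dehydrogenation thus had transcript changes of opposite sign. Acly, the cytosolic lyase that turns citrate into acetyl-CoA for lipid synthesis, averaged 164 ± 7.97 CPM in DP and 119.7 ± 3.37 CPM in DN (log2 fold change 0.45 ± 0.043, edgeR adjusted p = 2.22e-14). Me2, a mitochondrial malic enzyme that turns malate into pyruvate, averaged 85.0 ± 1.28 CPM in DP and 53.9 ± 0.819 CPM in DN (log2 fold change 0.66 ± 0.051, edgeR adjusted p = 6.96e-18), with coefficients of variation of 1.51% in DP and 1.52% in DN.

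Ratios of 2 genes within a library do not depend on how libraries are scaled, and 10 such pairs were compared. The groups did not overlap for 8 of the 10, each with an exact two-sided permutation p of 0.1, the smallest that 3 against 3 allows (0.125 adjusted over the 10 pairs), so none could pass 0.05. Of all single genes tested, 77.0% did not overlap either, and no such share was computed for ratios of other gene pairs. The count ratio Idh3g/Idh3a was 0.214, 0.249 and 0.222 in the DP libraries, against 0.711, 0.972 and 0.837 in the DN libraries, a log2 difference of -1.87 and the largest of the 10. Idh3b/Idh3a was 0.578, 0.589 and 0.580 in the DP libraries, against 1.23, 1.38 and 1.30 in the DN libraries (log2 difference -1.16). Idh2/Idh3a differed by -1.55, and these 3 pairs share Idh3a. Cytosolic over mitochondrial enzyme showed no common direction. Idh1/Idh2 was 0.136, 0.139 and 0.148 in the DP libraries, against 0.401, 0.396 and 0.363 in the DN libraries (-1.45), and Mdh1/Mdh2 was 0.467, 0.443 and 0.466 in the DP libraries, against 0.949, 1.05 and 0.903 in the DN libraries (-1.07), both lower in DP, whereas Got1/Got2 was 0.155, 0.178 and 0.157 in the DP libraries, against 0.0885, 0.101 and 0.0798 in the DN libraries (0.87), higher in DP.

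**Figure D4:**
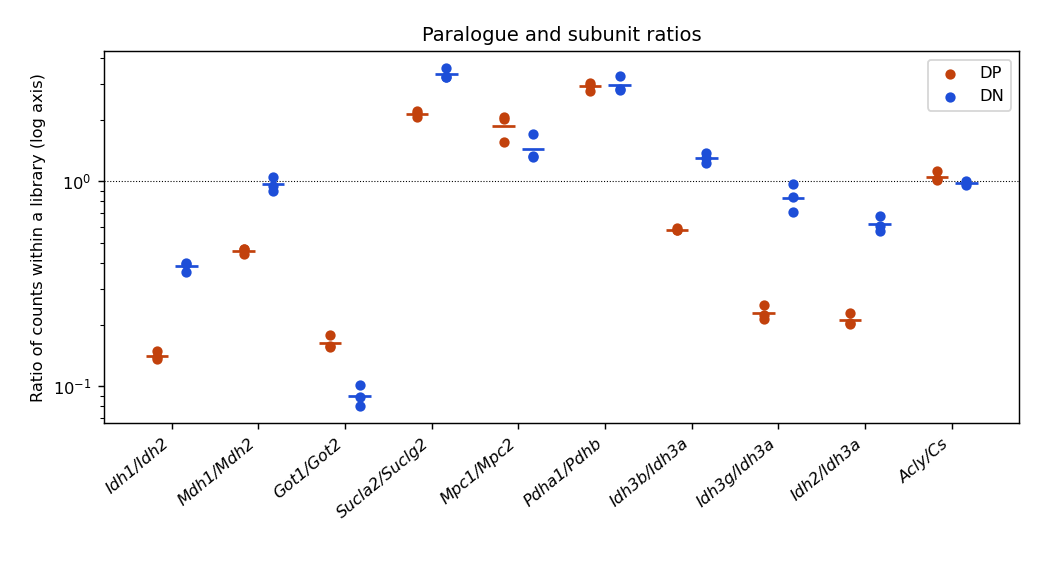
Ratio of counts of 2 genes within each library (log axis) in 3 DP libraries (orange) and 3 DN libraries (blue), with lines at the geometric mean. DP and DN points are apart for 8 pairs and overlap for Mpc1/Mpc2 and Pdha1/Pdhb.

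The ADP-linked over the GDP-linked beta subunit, Sucla2/Suclg2, was 2.20, 2.06 and 2.16 in the DP libraries, against 3.56, 3.24 and 3.25 in the DN libraries (log2 difference -0.65). For the partner subunits Pdha1 and Pdhb, no difference beyond the spread of the libraries was found. Pdha1/Pdhb was 2.76, 3.02 and 2.97 in the DP libraries, against 2.80, 3.26 and 2.82 in the DN libraries, with log2 means of 1.54 ± 0.068 in DP and 1.56 ± 0.12 in DN (SD, n = 3 each, exact two-sided permutation p = 0.8). Its log2 difference of -0.019 turned to 0.053 without DN replicate 2 and 0.020 without DP replicate 1. Mpc1/Mpc2 averaged 1.88 ± 0.279 in DP and 1.45 ± 0.222 in DN, and its libraries overlapped (exact two-sided permutation p = 0.2). Acly/Cs averaged 1.06 ± 0.0605 in DP and 0.984 ± 0.0236 in DN, a difference of 0.10 on the log2 scale without overlap, which was 0.054 without DP replicate 3.

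The wider list held 36 further genes of the same pathway, of which 28 passed the filter. Of these, 18 were higher and 5 lower in DP, beside the 38.3% and 37.6% over all genes, with a median log2 fold change of 0.42. Of 8 succinate dehydrogenase genes and assembly factors, 4 were higher and 3 lower. Sdha, the flavoprotein subunit, averaged 465 ± 5.60 CPM in DP and 342 ± 1.14 CPM in DN (log2 fold change 0.45 ± 0.036), and Sdhd, a membrane anchor, averaged 40.2 ± 1.88 CPM in DP and 24.5 ± 1.23 CPM in DN (log2 fold change 0.72 ± 0.071). Sdhb, the iron-sulfur subunit, had 58.0, 61.2 and 56.4 CPM in the DP libraries, against 65.6, 81.3 and 83.9 CPM in the DN libraries, and was lower (log2 fold change -0.38 ± 0.065, edgeR adjusted p = 5.41e-06). The assembly factors Sdhaf2 (log2 fold change -0.53 ± 0.057) and Sdhaf4 (log2 fold change -0.67 ± 0.23) were lower too. Of the other assembly factors, Sdhaf1 was higher (log2 fold change 1.03 ± 0.12) and Sdhaf3 was not called (log2 fold change 0.21 ± 0.21). Both were named after their values were seen. Succinate dehydrogenase thus resembled isocitrate dehydrogenase in having subunit genes with changes of both signs.

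Of 5 mitochondrial carriers of cycle intermediates, 4 were higher in DP and none lower. Slc25a13, an aspartate-glutamate carrier of the malate-aspartate shuttle, had 23.9, 23.6 and 24.7 CPM in the DP libraries, against 8.01, 7.13 and 8.10 CPM in the DN libraries (log2 fold change 1.63 ± 0.10, edgeR adjusted p = 6.36e-22). Lias, the synthase of the lipoyl group that the oxo acid dehydrogenase cores carry, averaged 57.9 ± 2.13 CPM in DP and 37.8 ± 3.98 CPM in DN (log2 fold change 0.62 ± 0.063). The sharpest fall of the list was that of Acss1, which makes acetyl-CoA from acetate inside the mitochondrion. It had 30.2, 28.4 and 29.4 CPM in the DP libraries, against 107, 108 and 111 CPM in the DN libraries (log2 fold change -1.89 ± 0.054, edgeR adjusted p = 7.12e-39). Pck2, the mitochondrial phosphoenolpyruvate carboxykinase, averaged 17.3 ± 1.16 CPM in DP and 26.2 ± 0.591 CPM in DN and was lower as well (log2 fold change -0.59 ± 0.083).

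Sequence shared with other genes limits a few of these values. For 22 of the 28 genes, Got1, Pcx, Dlat, Idh1, Pdp1 and all subunits of isocitrate dehydrogenase among them, under 3% of the 50-base stretches of their transcripts occur in another annotated gene. The other 6 are Mpc1 (26.3%), Got2 (25.6%), Suclg2 (15.96%), Pdha1 (12.9%), Pdhb (11.4%) and Glud1 (6.49%), so their levels are uncertain where reads could have been split or set aside. The processed copy Got2-ps1 held 46 counts in the DP libraries together and 24 in the DN libraries, about 0.604% and 1.16% of the Got2 level. Mpc1-ps held 53 and 25 counts, a larger share of the Mpc1 level (10.75% in DP and 9.23% in DN). On the opposite strand, 4930506C21Rik overlaps 23.1% of the Mpc1 exon bases, with 1 count in DP and 1 in DN. Map3k15 overlaps 16.1% of the Pdha1 exon bases on the opposite strand, and stood at 2.08 CPM in DP and 10.8 CPM in DN. The strand setting of the counting is not given in the sources used here, so reads of the pair cannot be separated with certainty.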

How the data were processed

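The authors deposited raw counts of reads per gene for each library. The submitters' processing notes name mm10, HTSeq 0.13.5, STAR 2.7.10a and Trim Galore 0.6.6 but give neither roles nor settings. Per the labels' protocols, stranded libraries were made from 2 ug of total RNA. The 5 summary rows of each table, 9.56% of counts on average in DP and 12.6% in DN, were left out. DP was compared with DN over all genes with the quasi-likelihood test of edgeR 4.0.16 (R 4.3.3, TMM, filterByExpr with a minimum count of 10, robust, no block, Benjamini-Hochberg adjustment, threshold 0.05), which left 11296 of 55401 genes. Standard errors are the fitted log2 fold change over the root of its F statistic.

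TPM used exon lengths from GENCODE M21 and serve only to compare levels between genes. Each length joins all annotated exons of a gene, which can exceed the transcript that is expressed. Permutation tests used scipy 1.17.1. On simulated data for DP against DN (11296 genes, 200 changed), the test recovered 8% of 1.1-fold, 56% of 1.2-fold, 84% of 1.5-fold and 94% of 2-fold changes. Library pairs within a group differed by more than sampling noise (chi-square per degree of freedom 1.96 to 3.26, against 144 to 182 between groups). None was thus taken as a copy of another, and all 6 were kept. The common coefficient of variation beyond counting noise was 3.31%. Neither value can tell libraries of separate mice from repeated preparations of the same material. Alternatives were DESeq2 size factors, library totals alone, no filter, a minimum count of 50, DESeq2 1.42.0, limma-voom (limma 3.58.1), a replicate block, a minimum fold of 1.5 and each library left out. The members, lists and pairs were chosen with earlier results of these data known. The text names all 28 members and, of the wider list, up to 6 called genes with the smallest p in each direction, of which 2 are not reported here. The 3 printed promoters, and genes marked so, were chosen after their values were seen.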

Additional observations from a re-analysis of the deposited data

How the results depend on the processing

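Of 392 recomputed fold changes of single members, 364 kept their direction and their side of the threshold, 17 lost the call and 8 gained one. The other 3 changed sign, namely Sucla2 and Mpc1 (-0.063) with library totals alone and Fh1 (0.0020) with no filter, and none of these passed the test there. The minimum fold of 1.5 accounts for most losses by construction, with 8 members higher and 2 lower, and 1964 and 1912 genes in all. With library totals alone, 15 members were higher and 8 lower, their median was 0.16, Sucla2 turned to -0.048, and 38.1% of all called genes were higher, as against 50.5% with TMM factors. Leaving out each library in turn gave 19 members higher each time, 5 to 6 lower and medians of 0.35 to 0.39. Same-numbered libraries correlated at 0.0562, -0.00611 and -0.0182 in their deviations from the group means. Differently numbered libraries correlated at -0.0354 to 0.0397. By the design text each mouse gave a DP and a DN library, but the labels do not say whether a number marks a mouse. These values therefore cannot show which libraries form a pair, and the main comparison left the pairing out. With the replicate number as a block, 19 members were higher and 6 lower (median 0.36), and 4338 and 4251 genes in all. Idh2 was the member whose call changed there (-0.13, edgeR adjusted p = 0.0495). Within 250 bases before the start only, the ETS core stood in 3 member genes and the nuclear receptor element in 1. Depth limits Pcx, Pdp1 and the carrier genes most.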
